A study of Mus musculus with 96 samples.

Results

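Apc-min Bmal1-null intestinal organoids were compared with Bmal1-null organoids, to describe what an Apc mutation changes in intestinal epithelium that lacks a working clock gene. The comparison set 21 Apc-min Bmal1-null libraries against 22 Bmal1-null libraries matched by time point, which are 43 of the 88 libraries with deposited TPM values (transcript abundance scaled to the same total in every library). A gene was tested where its mean reached 1 TPM in at least 1 genotype, which left 13362 of 55536. Apc-min Bmal1-null organoids carry the genotype labelled APCmin/-;BMAL1-/-, are labelled as adenoma organoids and grew in EN medium. Bmal1-null organoids carry the genotype labelled APC+/+;BMAL1-/-, are labelled as intestinal organoids and grew in ENR medium, in which R-spondin, a Wnt agonist, is added. Both genotypes share the loss of Bmal1, the C57BL/6 strain and a 1 h pulse of 0.1 µM dexamethasone that was given to synchronize their clocks, and both were collected every 2 h from 24 to 46 h afterwards. Organoids labelled APCmin/-;BMAL1+/+ (Apc-min) and APC+/+;BMAL1+/+ (control) are used below for a second Apc contrast. They had the same dexamethasone pulse and collection times. The labels give 2 organoid lines per genotype without saying which line a library came from, so p-values measure the spread between libraries and not between many mice.

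Apc is a scaffold of the complex that marks beta-catenin for destruction. Where Apc fails, beta-catenin enters the nucleus and switches on Wnt target genes together with TCF factors, which in the intestine starts an adenoma. Wnt signals normally keep stem cells and Paneth cells at the crypt base, and daughter cells that leave the crypt become absorptive enterocytes or secretory goblet, enteroendocrine and tuft cells under the control of Notch. With its partner Clock, the transcription factor Bmal1 (symbol Arntl) drives the circadian clock.

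The deposited alignment table gave 32.9 to 48.1 M uniquely mapped reads per library in Apc-min Bmal1-null organoids and 28.8 to 42.2 M in Bmal1-null organoids. Reads unmapped as too short averaged 1.31% in Apc-min Bmal1-null libraries, against 6.00% in Bmal1-null libraries, and the first carry library numbers 2 to 46 and the second 51 to 96. The Apc mutation, the adenoma origin, the medium and the library series cannot be told apart in this comparison. A library of the Apc-min Bmal1-null genotype at 28 h, number 10, was left out: its level of 14.7 TPM for Arntl and 12.02 TPM for the Bmal1 target Nr1d1 went against its label, where the other libraries of the genotype reached 6.22 and 5.86 TPM at most. Xist, the RNA of the inactive X chromosome, was at 41.8 to 88.4 TPM in the 10 higher-numbered Apc-min Bmal1-null libraries of each time point and at 39.6 to 84.9 TPM in the 11 higher-numbered Bmal1-null libraries. It was at 0.06 TPM or less in the lower-numbered libraries of both genotypes, so both genotypes held libraries with and without it, and 0 of 5 sex-linked genes were called.

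Apc (ENSMUSG00000005871; plus strand of chromosome 18 from 34220924 to 34322552; GRCm38) had 5.38, 16.1 and 23.99 TPM (lowest, median and highest library) in Apc-min Bmal1-null organoids, against 4.02, 9.66 and 12.1 TPM in Bmal1-null libraries. The groups overlapped, and the log2 difference of 0.71 ± 0.14 (SE) was under 2-fold (limma adjusted p = 1.77e-05). Gene-level TPM does not show whether a transcript carries the Min mutation. Arntl (ENSMUSG00000055116; plus strand of chromosome 7 from 113207465 to 113314126) had 2, 4.39 and 6.22 TPM in Apc-min Bmal1-null and 6.31, 8.72 and 10.9 TPM in Bmal1-null libraries, so reads of the gene remained in both genotypes (-0.88 ± 0.07 on the log2 scale, adjusted p = 1.61e-13). The groups did not overlap, but library 10 was left out for its level of this same gene, and with it they would overlap. The difference and its p-value depend on that choice. Which exons the null allele lacks is not given in the sources used here, so the level of the whole gene does not check it.

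A gene is said to have risen or fallen where limma's p, adjusted by Benjamini-Hochberg over all tested genes, was under 0.05 and the difference in log2(TPM + 1) reached 2-fold. By this rule 1553 genes rose (11.6% of those tested) and 2029 fell (15.2%) in Apc-min Bmal1-null organoids. The adjusted p alone was passed by 85.2% of the genes, so the genes below are described by the size of their difference. In 1328 of the genes that rose and 1872 of those that fell, no Apc-min Bmal1-null library overlapped any Bmal1-null library. Over all tested genes, groups of libraries that did not overlap made up 17.2% on the higher side and 19.2% on the lower side. By 16-fold or more 273 genes fell and 71 rose. The median log2 difference over all tested genes was 0.06. The added 1 TPM makes every difference of a gene near 0 smaller than its true ratio.

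**Figure D1:**
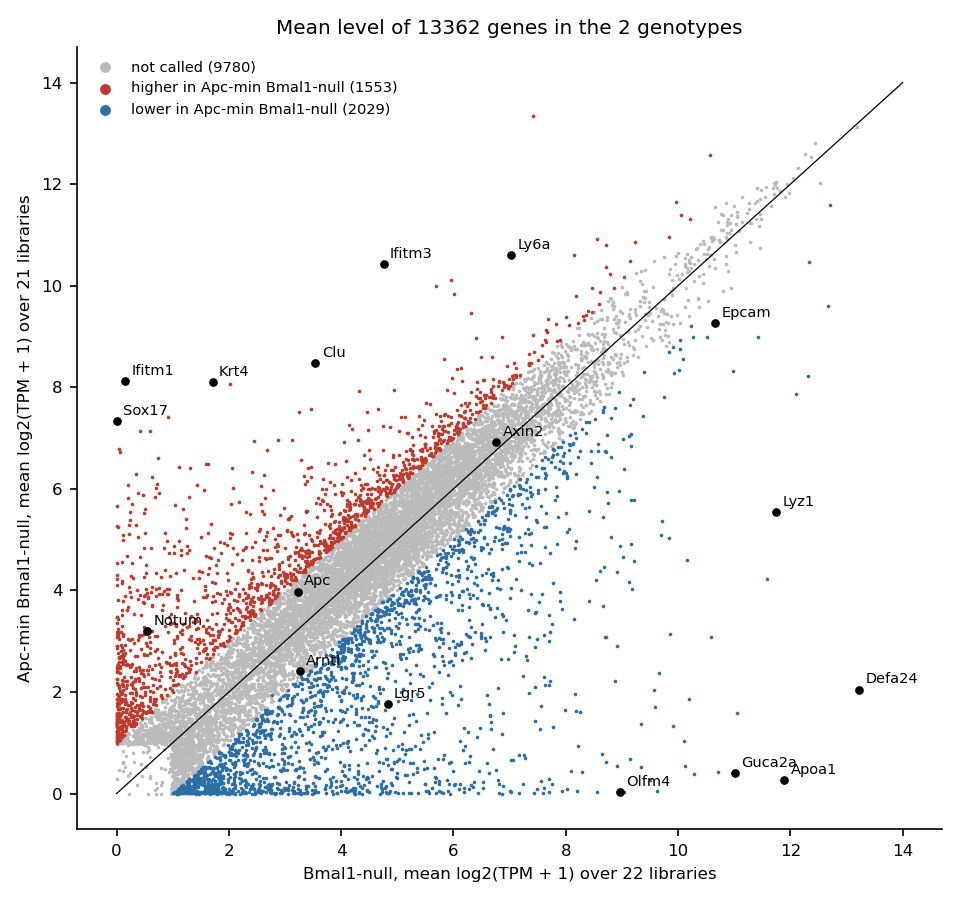
Mean log2(TPM + 1) of each of 13362 tested genes over 21 Apc-min Bmal1-null libraries (vertical) and 22 Bmal1-null libraries (horizontal); the line marks equal levels, red points the 1553 genes that rose, blue points the 2029 that fell and grey points the rest. Apoa1, Guca2a and Olfm4 lie on the horizontal axis and Sox17 and Ifitm1 near the vertical axis, while Apc and Axin2 lie near the line.

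The 15 largest falls were genes of enterocytes, Paneth cells and goblet cells, and 1 stem cell marker. Apoa1 (ENSMUSG00000032083; plus strand of chromosome 9 from 46228580 to 46230466), the main protein of high-density lipoprotein, had 0.04, 0.15 and 0.5 TPM in Apc-min Bmal1-null libraries, against 3065, 3879.7 and 4592 TPM in Bmal1-null libraries (-11.63 ± 0.04, adjusted p = 2.53e-54). Defa24, a Paneth cell alpha-defensin that kills bacteria, had 0.79, 3.28 and 7.18 TPM in Apc-min Bmal1-null and 7953, 9452 and 13574 TPM in Bmal1-null libraries (-11.17 ± 0.14). Every Apc-min Bmal1-null library was far below every Bmal1-null library for both genes. The others of the 15 were the defensins Defa30, Defa17 and Defa22 and the Paneth ribonuclease Ang4, the goblet cell lectin Zg16 and peptide Spink4, and guanylin and uroguanylin (Guca2a and Guca2b), which regulate fluid secretion. They also held the brush border enzyme Sis, the apolipoprotein Apoa4, the stem cell glycoprotein Olfm4, the microvillus adhesion molecule Tmigd1 and the chloride channel regulator Clca4b. These 15 had log2 differences of -11.63 to -8.54, and in all 15 the groups did not overlap.

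The 15 largest rises held interferon-induced membrane proteins, stratified epithelium genes and developmental regulators. Ifitm1 (ENSMUSG00000025491; plus strand of chromosome 7 from 140967221 to 140969825), an interferon-induced membrane protein, had 161, 277 and 446 TPM in Apc-min Bmal1-null libraries, against 0, 0.09 and 0.3 TPM in Bmal1-null libraries (7.96 ± 0.08, adjusted p = 2.43e-41). Sox17, an endoderm transcription factor, had 85.4, 169 and 195 TPM in Apc-min Bmal1-null and 0, 0 and 0.07 TPM in Bmal1-null libraries (7.31 ± 0.06). Both were close to absent from every Bmal1-null library and abundant in every Apc-min Bmal1-null library. Others were Ifitm3, the keratin Krt4, the epidermal crosslinking enzyme Tgm1 and the cornified envelope gene Cnfn. They further held the gastric trefoil peptide Tff1, the matrix protein Efemp1, the small heat shock protein Cryab, the protease inhibitor gene Wfdc2, the LIM protein gene Crip2, the tubulin Tubb6, the aldehyde dehydrogenase Aldh3a1 and the membrane protein Basp1. These 15 had log2 differences of 5.61 to 7.96, again with no overlap in any of the 15.

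Gene lists are described below by their tested members. A member that is low in a genotype enters only through the level it has in the other, so these counts describe the lists and support nothing beyond them, and in bulk RNA fewer cells of a type and less RNA per cell cannot be told apart. Below, with Apc-min stands for the median of the Apc-min Bmal1-null libraries and without for that of the Bmal1-null libraries, and the log2 difference between the genotypes follows with its SE. Over all tested genes the shares are the 11.6% that rose and the 15.2% that fell.

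Of 10 tested genes of the destruction complex and beta-catenin, 0 rose and 0 fell, with log2 differences of -0.56 (Gsk3b, the kinase that phosphorylates beta-catenin) to 0.71 (Apc), and Ctnnb1, beta-catenin, was at 958 TPM with Apc-min and 694 without (0.47 ± 0.03). Of 16 listed Wnt feedback inhibitors 7 were tested, 2 rose and 0 fell. Notum (ENSMUSG00000042988; minus strand of chromosome 11 from 120653788 to 120661175), a secreted enzyme that removes the lipid of Wnt ligands, had 5.78, 7.93 and 13.1 TPM in Apc-min Bmal1-null libraries, against 0.26, 0.475 and 0.69 TPM in Bmal1-null libraries (2.66 ± 0.07, adjusted p = 4.42e-28). Nkd1 (ENSMUSG00000031661; plus strand of chromosome 8 from 88521354 to 88594884), which binds Dishevelled and dampens Wnt signals, had 3.14, 7.1 and 9.98 TPM in Apc-min Bmal1-null and 0.63, 0.98 and 1.58 TPM in Bmal1-null libraries (1.98 ± 0.08). In both genes every Apc-min Bmal1-null library exceeded every Bmal1-null library. Axin2, a classic feedback target, had 49.2, 125 and 182 TPM in Apc-min Bmal1-null and 77.4, 109.5 and 143 TPM in Bmal1-null libraries, and the groups overlapped (0.14 ± 0.09). Rnf43 and Znrf3, ubiquitin ligases that remove Wnt receptors and are themselves opposed by R-spondin, differed by 0.74 ± 0.10 and 0.47 ± 0.12.

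The Nkd1 promoter is shown because Nkd1 was the Wnt feedback inhibitor of largest difference with a RefSeq promoter window. The 250 bases before the start that the RefSeq table gives (chr8:88527383-88527632, plus strand, GRCm38.p6) lie inside the gene as GENCODE draws it, downstream of the GENCODE start, so the region before that start is not covered. They hold no match to the TCF motif letters CTTTGAT or CTTTGAA on either strand, so no letter is in capitals. Such a match was found in 7.48% of the 32851 promoter windows of this length.
Nkd1: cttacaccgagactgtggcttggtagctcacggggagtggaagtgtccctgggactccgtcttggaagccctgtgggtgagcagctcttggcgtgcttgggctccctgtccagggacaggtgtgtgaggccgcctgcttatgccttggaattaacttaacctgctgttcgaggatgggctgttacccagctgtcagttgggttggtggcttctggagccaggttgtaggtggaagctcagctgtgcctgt

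Of 16 tested Wnt target genes 7 rose and 2 fell, with a median of 0.91 on the log2 scale. Ccnd1, cyclin D1, had 296, 519 and 615 TPM in Apc-min Bmal1-null libraries, against 60.3, 86.6 and 102 TPM in Bmal1-null libraries (2.55 ± 0.08, adjusted p = 1.68e-26). Its groups did not overlap, and the urokinase receptor Plaur (155 TPM with Apc-min and 28.2 without, 2.33 ± 0.05), the hyaluronan receptor Cd44 (70.7 TPM with Apc-min and 21.2 without, 1.64 ± 0.10) and the transcription factor Myc (286 TPM with Apc-min and 112 without, 1.3 ± 0.05) likewise rose. Id2, Sp5 and Tcf7 also rose, by 1.52, 1.12 and 1.09, the last a TCF factor itself. The progenitor factors Sox4 (-1.1 ± 0.06) and Mycn (-2.01 ± 0.05) fell, although Sox4 was not called in higher-numbered libraries alone (-0.91) or from 36 h on (-0.94). Sox9, a crypt transcription factor, stood at 30.99 TPM with Apc-min and 38.4 without with overlapping groups (-0.29 ± 0.07).

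Among Wnt ligands, receptors and TCF factors 4 rose and 6 fell of 22 tested. Wnt3, the ligand that Paneth cells make, had 0.01, 0.08 and 0.22 TPM in Apc-min Bmal1-null and 10.5, 13.1 and 15.3 TPM in Bmal1-null libraries, without overlap (-3.68 ± 0.04). The receptors Fzd2, Fzd4, Fzd5 and Fzd9 and the co-receptor Ror2 fell, with log2 differences of -2.04 (Fzd2) to -1.05 (Fzd9, which lower-numbered libraries alone did not call), and Fzd6 rose (1.67 ± 0.09). The ligands Wnt10a (3.55 TPM with Apc-min and 0.05 without, 2.12 ± 0.09) and Wnt4 (1.23 ± 0.07) and the Wnt acyltransferase Porcn (1.39 ± 0.07) also rose. The R-spondin receptor Lgr4 differed by -0.14 ± 0.10, with overlapping groups.

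Markers of crypt stem cells did not move together. Of 19 tested, 5 fell and 2 rose, with a median of 0.14. Lgr5 (ENSMUSG00000020140; minus strand of chromosome 10 from 115450311 to 115587780), the R-spondin receptor that marks crypt base stem cells, had 0.84, 2.02 and 7.41 TPM in Apc-min Bmal1-null libraries, against 15.4, 28.6 and 50.7 TPM in Bmal1-null libraries (-3.1 ± 0.14, adjusted p = 4.12e-21). Olfm4, an abundant stem cell glycoprotein, had 0, 0 and 0.1 TPM in Apc-min Bmal1-null and 251, 492 and 839 TPM in Bmal1-null libraries (-8.95 ± 0.09). Neither gene had overlapping groups, and Smoc2 (22.4 TPM with Apc-min and 214 without, -3.01 ± 0.12), the RNA-binding protein Msi1 (1.42 TPM with Apc-min and 30.3 without, -3.57 ± 0.11) and the BMP co-receptor Rgmb (7.15 TPM with Apc-min and 69.4 without, -3.21 ± 0.08) fell with them. Tnfrsf19, a Wnt-responsive receptor, rose (22.8 TPM with Apc-min and 2.17 without, 2.78 ± 0.10), as did the urea transporter Slc14a1 (1.89 ± 0.08). Ascl2, the master regulator of the crypt stem cell program, was at 91.5 TPM with Apc-min and 47.98 without (0.81 ± 0.05), just under 2-fold. The reserve stem cell markers Bmi1, Lrig1 and Hopx differed by 0.29 ± 0.10, 0.3 ± 0.06 and 0.67 ± 0.04.

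**Figure D2:**
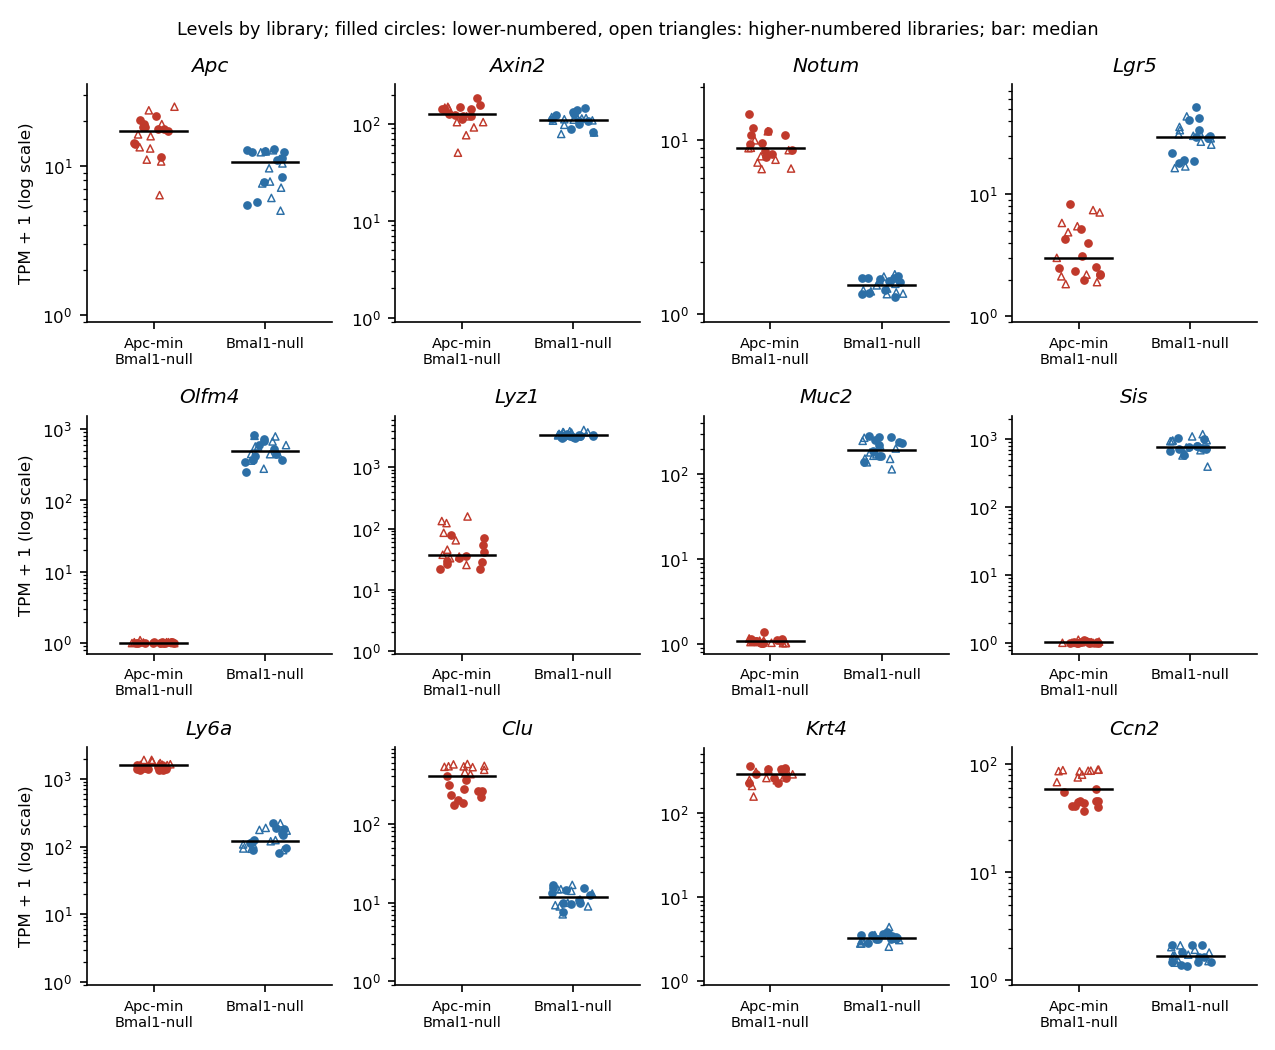
TPM + 1 (log axis) of 12 genes in each of 21 Apc-min Bmal1-null libraries (red, left) and 22 Bmal1-null libraries (blue, right); circles are lower-numbered and triangles higher-numbered libraries, bars medians. Apc and Axin2 overlap between the genotypes, while Olfm4, Muc2 and Sis lie near 1 in every Apc-min Bmal1-null library and Notum, Ly6a, Clu, Krt4 and Ccn2 are higher there without overlap.

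Marker genes of secretory lineages were mostly lower. Of 19 tested Paneth cell genes 16 fell and 0 rose, with a median of -6.32. Lyz1, Paneth cell lysozyme, had 20.4, 36.2 and 156 TPM in Apc-min Bmal1-null libraries, against 3008, 3395 and 4104 TPM in Bmal1-null libraries (-6.25 ± 0.16, adjusted p = 1.99e-28). Its level in Apc-min Bmal1-null libraries stayed well above 0 but far below every Bmal1-null library. Itln1, a bacteria-binding lectin, followed (17.2 TPM with Apc-min and 3041 without, -7.36 ± 0.10), and Defa26, Defa29, Defa5 and Defa3 had medians listed at 0. The 3 that were not called were the metalloproteinase Mmp7 (479 TPM with Apc-min and 397 without), which also is a Wnt target, Pla2g2a (30.1 TPM with Apc-min and 36.3 without) and the pentraxin Mptx2 (7.03 TPM with Apc-min and 5.04 without). Alpha-defensins are a multigene family of near-identical copies, so reads may be split between them and single values are uncertain.

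Of 16 tested goblet cell genes 14 fell and 0 rose, with a median of -4.32. Muc2, the mucin of intestinal mucus, had 0.02, 0.07 and 0.37 TPM in Apc-min Bmal1-null libraries, against 113, 193 and 280.0 TPM in Bmal1-null libraries (-7.53 ± 0.09). The groups lay far apart. Tff3, the goblet cell trefoil peptide, kept the highest level of the list in Apc-min Bmal1-null organoids (251 TPM with Apc-min and 4338 without, -4.2 ± 0.08), with Agr2, a disulfide isomerase that mucin folding needs, at 39.4 TPM with Apc-min and 846 without (-4.38 ± 0.10). The mucus protein Fcgbp fell (3.12 TPM with Apc-min and 747 without, -7.55 ± 0.08). Foxa3 and Galnt12 were not called (-0.6 and -0.08).

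All 20 tested enteroendocrine genes fell, with a median of -3.09. Gcg, which encodes glucagon-like peptides, had 0, 0 and 0.47 TPM in Apc-min Bmal1-null and 209.7, 256 and 312 TPM in Bmal1-null libraries (-7.93 ± 0.05). The hormones Pyy (0 TPM with Apc-min and 111 without), Cck (0.07 TPM with Apc-min and 108 without), Sct (5.95 TPM with Apc-min and 144 without) and Nts (6.66 TPM with Apc-min and 65.7 without) and the granule protein Chga (0.56 TPM with Apc-min and 76.1 without) also fell, and of these 6 only Nts and Sct kept a median above 1 TPM in Apc-min Bmal1-null libraries. Of 11 tested tuft cell genes 7 fell and 2 rose. Dclk1, at 0.09 TPM with Apc-min and 1.49 without, and the cation channel Trpm5, at 0.21 TPM with Apc-min and 2.58 without, were low in both genotypes. The 2 that rose, the cyclooxygenase Ptgs1 (19.2 TPM with Apc-min and 0.62 without) and the actin-binding protein Avil (22.1 TPM with Apc-min and 2.12 without), are not limited to tuft cells. The summed level of the tuft list was higher with Apc-min, at 37.1 to 75.2 TPM in Apc-min Bmal1-null and 19.96 to 29.01 TPM in Bmal1-null libraries.

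Factors that set secretory fate fell in parallel. Atoh1, which commits progenitors to the secretory lineages, had 0.17, 0.54 and 1.52 TPM in Apc-min Bmal1-null libraries, against 28, 35.2 and 40.1 TPM in Bmal1-null libraries (-4.39 ± 0.07, adjusted p = 1.29e-35). No library of the groups overlapped. Spdef (1.09 TPM with Apc-min and 41.3 without), Gfi1 (0.07 TPM with Apc-min and 7.09 without) and Neurog3 (0.2 TPM with Apc-min and 8.53 without), which direct goblet, Paneth and enteroendocrine fates, also fell, as did the Notch ligands Dll1 (-3.37 ± 0.07) and Dll4 (-2.51 ± 0.07) and the Notch target Hes5 (-1.83 ± 0.06). The Notch ligand Jag2 (155 TPM with Apc-min and 33.4 without, 2.06 ± 0.11), Jag1 (1.29 ± 0.10) and the receptor Notch3 (1.23 ± 0.08) rose. Hes1, the main Notch effector in the crypt, was at 109 TPM with Apc-min and 118 without with overlapping groups (-0.14 ± 0.03). In all, 7 fell and 3 rose of 15 tested genes of this list.

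Genes of absorptive enterocytes fell as well. Of 19 tested brush border digestive enzymes 17 fell and 0 rose, with a median of -4.74. Sis (ENSMUSG00000027790; minus strand of chromosome 3 from 72888557 to 72967863), sucrase-isomaltase, had 0, 0.02 and 0.12 TPM in Apc-min Bmal1-null libraries, against 396, 767 and 1191 TPM in Bmal1-null libraries (-9.58 ± 0.07, adjusted p = 3.11e-44). The peptidases Naaladl1 (0.48 TPM with Apc-min and 482 without), Enpep (0 TPM with Apc-min and 213 without) and Anpep (7.8 TPM with Apc-min and 938 without) fell, with log2 differences of -8.38 to -6.74. Maltase-glucoamylase, Mgam, kept more RNA, with 10.2 TPM with Apc-min and 291 without (-4.74 ± 0.08). Of 16 tested microvillus proteins 14 fell and 0 rose, by less than the enzymes (median -2.19): Vil1, villin, was at 178 TPM with Apc-min and 721 without (-1.97 ± 0.09), while the linker Ezr, ezrin, was at 566 TPM with Apc-min and 516 without (0.02 ± 0.10).

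The Sis promoter is shown because Sis had the largest fall among the digestive enzymes, and because an element near its start is a textbook site of the intestinal Cdx factors; it was chosen after its values were seen. In the 250 bases before the start (chr3:72967864-72968113, minus strand, GRCm38.p6, RefSeq) the capitals mark matches to the letters TTTATG or TTTATTG on either strand, at -52 to -46 and -43 to -38 counted from the start. Such matches occurred in 14.3% of all 32851 windows. They occurred in 4 of the 11 genes with a window among the 15 largest falls and in 1 of the 8 among the 15 largest rises. The TCF letters occurred in 3 of the same 11 genes and 1 of the same 8, and in 7.48% of all windows. A gene was counted where any of its windows matched, so the counts of genes and the shares of windows are unlike measures. A match is a description of letters and not a measured site.
Sis: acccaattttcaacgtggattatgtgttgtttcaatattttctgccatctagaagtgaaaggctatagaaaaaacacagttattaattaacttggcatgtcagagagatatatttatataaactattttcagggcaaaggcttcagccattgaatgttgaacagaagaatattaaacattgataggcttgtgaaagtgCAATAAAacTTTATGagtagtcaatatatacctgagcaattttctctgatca

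Transport and lipid genes followed the enzymes. Of 20 tested nutrient and ion transporters 18 fell and 1 rose, with a median of -4.45. The sodium-glucose transporter Slc5a1 was at 0.88 TPM with Apc-min and 305 without (-7.3 ± 0.08), the amino acid transporter Slc6a19 at 0 TPM with Apc-min and 66.2 without (-6.18 ± 0.06) and the chloride channel Cftr, which fell with overlapping groups, at 12.2 TPM with Apc-min and 31.1 without (-1.2 ± 0.10). Slc28a2, a nucleoside transporter, rose (4.27 TPM with Apc-min and 0.59 without, 1.76 ± 0.09). Of 19 tested apolipoprotein and lipid absorption genes 16 fell and 0 rose, among them Apoc3 (0 TPM with Apc-min and 136 without), the cholesterol importer Npc1l1 (0.32 TPM with Apc-min and 63.8 without), the chylomicron assembly factor Mttp (2.1 TPM with Apc-min and 263 without) and the fatty acid binding protein Fabp2 (42.3 TPM with Apc-min and 417 without, -3.21 ± 0.05). The lipid droplet protein Plin2 (0.23 ± 0.07) was not called.

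Ileal bile acid genes fell in 7 of 8 tested, with a median of -5.03. Fabp6, the ileal bile acid binding protein, had 0.1, 0.6 and 2.09 TPM in Apc-min Bmal1-null and 246, 380.5 and 586 TPM in Bmal1-null libraries (-7.83 ± 0.10), and the groups did not overlap. The bile acid exporters Slc51a and Slc51b and the receptor Nr1h4 (FXR) differed by -7.65, -7.43 and -5.84, and the exporter Abcc3 was not called (0.76). Of 10 iron genes 3 fell, the importer Slc11a2, the reductase Cybrd1 and the ferroxidase Heph (9.89 TPM with Apc-min and 53.2 without, -2.33 ± 0.09), and the heme oxygenase Hmox1 rose (35.9 TPM with Apc-min and 8.96 without, 1.94 ± 0.08). In the retinoid list 7 of 13 fell, with the binding protein Rbp2 at 7.32 TPM with Apc-min and 436 without (-5.62 ± 0.08), and 2 rose, the vitamin A receptor Stra6 (8.75 TPM with Apc-min and 0 without, 3.4 ± 0.12) and the nuclear receptor Rarb (1.22 ± 0.07).

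Of 23 tested transcription factors of gut regional identity 11 fell and 4 rose. Cdx2, which specifies the intestine, had 95.6, 114 and 141 TPM in Apc-min Bmal1-null libraries, against 243, 264 and 293 TPM in Bmal1-null libraries (-1.18 ± 0.04, adjusted p = 2.83e-24). Its groups did not overlap and its partner Cdx1 fell further (19.6 TPM with Apc-min and 479 without, -4.55 ± 0.08). The enterocyte regulators Hnf4a (144 TPM with Apc-min and 448 without, -1.71 ± 0.13) and Hnf4g (3.94 TPM with Apc-min and 66.2 without, -3.61 ± 0.12), the lipid regulator Creb3l3 (-6.21 ± 0.07) and Osr2, Maf, Nr5a2 and Gata6 also fell. Pdx1, a factor of the duodenum, antrum and pancreas, had 14.9, 22.3 and 25.1 TPM in Apc-min Bmal1-null and 0.16, 0.425 and 0.71 TPM in Bmal1-null libraries (3.96 ± 0.05). Sox21 (68.5 TPM with Apc-min and 3.34 without, 3.93 ± 0.09), which is known from foregut epithelium, Gata4, a proximal intestine factor (55.6 TPM with Apc-min and 10.5 without, 2.22 ± 0.10), and Onecut2 (1.65 ± 0.05) rose as well.

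Genes of other gut epithelia moved in both directions. Of 18 listed gastric genes 11 were tested, 8 rose and 1 fell. Tff1 had 37.1, 86.02 and 148 TPM in Apc-min Bmal1-null libraries, against 0, 0.17 and 1.26 TPM in Bmal1-null libraries (5.98 ± 0.12), and Tff2 (32.9 TPM with Apc-min and 0.145 without, 4.91 ± 0.09), the aspartic protease Ctse (31.5 TPM with Apc-min and 0.08 without, 4.88 ± 0.09) and the junction protein Vsig1 (22.4 TPM with Apc-min and 0.075 without, 4.45 ± 0.08) rose with it. The defining gastric mucins Muc5ac and Muc6 and the pepsinogen Pgc were at 0.05, 0.16 and 0.56 TPM at most in Apc-min Bmal1-null libraries, and the factor Sox2 at 0.05 TPM at most. Of 6 tested colon genes 5 fell and 0 rose, with the carbonic anhydrases Car1 (0.1 TPM with Apc-min and 82.6 without, -6.16 ± 0.09) and Car4 (-4.76 ± 0.06) lowest.

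Genes known from fetal and regenerating epithelium rose in 15 and fell in 3 of 22 tested, with a median of 1.86. Ly6a (Sca-1; ENSMUSG00000075602; minus strand of chromosome 15 from 74994877 to 74998031), a surface marker of regenerating crypts, had 1343, 1597 and 1907 TPM in Apc-min Bmal1-null libraries, against 78.7, 121 and 220.0 TPM in Bmal1-null libraries (3.58 ± 0.07, adjusted p = 9.61e-32). Clu, clusterin, which marks revival stem cells, had 173, 403 and 574 TPM in Apc-min Bmal1-null and 6.1, 10.7 and 15.8 TPM in Bmal1-null libraries (4.91 ± 0.12). Both genes had all Apc-min Bmal1-null libraries above all Bmal1-null libraries. Mesothelin, Msln (1005 TPM with Apc-min and 50.1 without, 4.27 ± 0.07), the annexins Anxa1 (901 TPM with Apc-min and 59.2 without, 3.83 ± 0.04) and Anxa8 (69.4 TPM with Apc-min and 1.54 without, 4.63 ± 0.07), the alarmin Il33 (33.8 TPM with Apc-min and 0.165 without, 5.14 ± 0.13) and the gap junction protein Gja1 (8.51 TPM with Apc-min and 0 without, 3.44 ± 0.11) also rose. Tm4sf4 (7.72 TPM with Apc-min and 163 without, -3.72 ± 0.18), the growth factor Ereg (-1.38 ± 0.08) and Sprr1a (-1.3 ± 0.19, not called in higher-numbered libraries alone) fell.

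Of 16 tested targets of the Hippo effector YAP 10 rose and 1 fell, with a median of 1.63. Ccn2 (CTGF), a matricellular protein, had 36.2, 58.1 and 88.5 TPM in Apc-min Bmal1-null libraries, against 0.35, 0.66 and 1.11 TPM in Bmal1-null libraries (5.14 ± 0.12, adjusted p = 3.99e-30). There was no overlap between the groups. Myof (106 TPM with Apc-min and 5.51 without, 4.09 ± 0.05), Ptpn14 (17.8 TPM with Apc-min and 0.505 without, 3.42 ± 0.09), Ajuba (97.6 TPM with Apc-min and 8.77 without, 3.29 ± 0.07), Ankrd1 (2.97 ± 0.19) and Ccn1 (2.46 ± 0.07) rose, and the coagulation initiator F3 fell (21.9 TPM with Apc-min and 55.6 without, -1.37 ± 0.08). Of 19 components of the pathway 7 rose and 0 fell, with the YAP paralog Wwtr1 (TAZ) at 17.7 TPM with Apc-min and 0.07 without (4.05 ± 0.05), the DNA-binding partner Tead4 at 20.6 TPM with Apc-min and 2.49 without (2.54 ± 0.10) and Yap1 itself at 81.1 TPM with Apc-min and 51.4 without (0.63 ± 0.09).

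**Figure D3:**
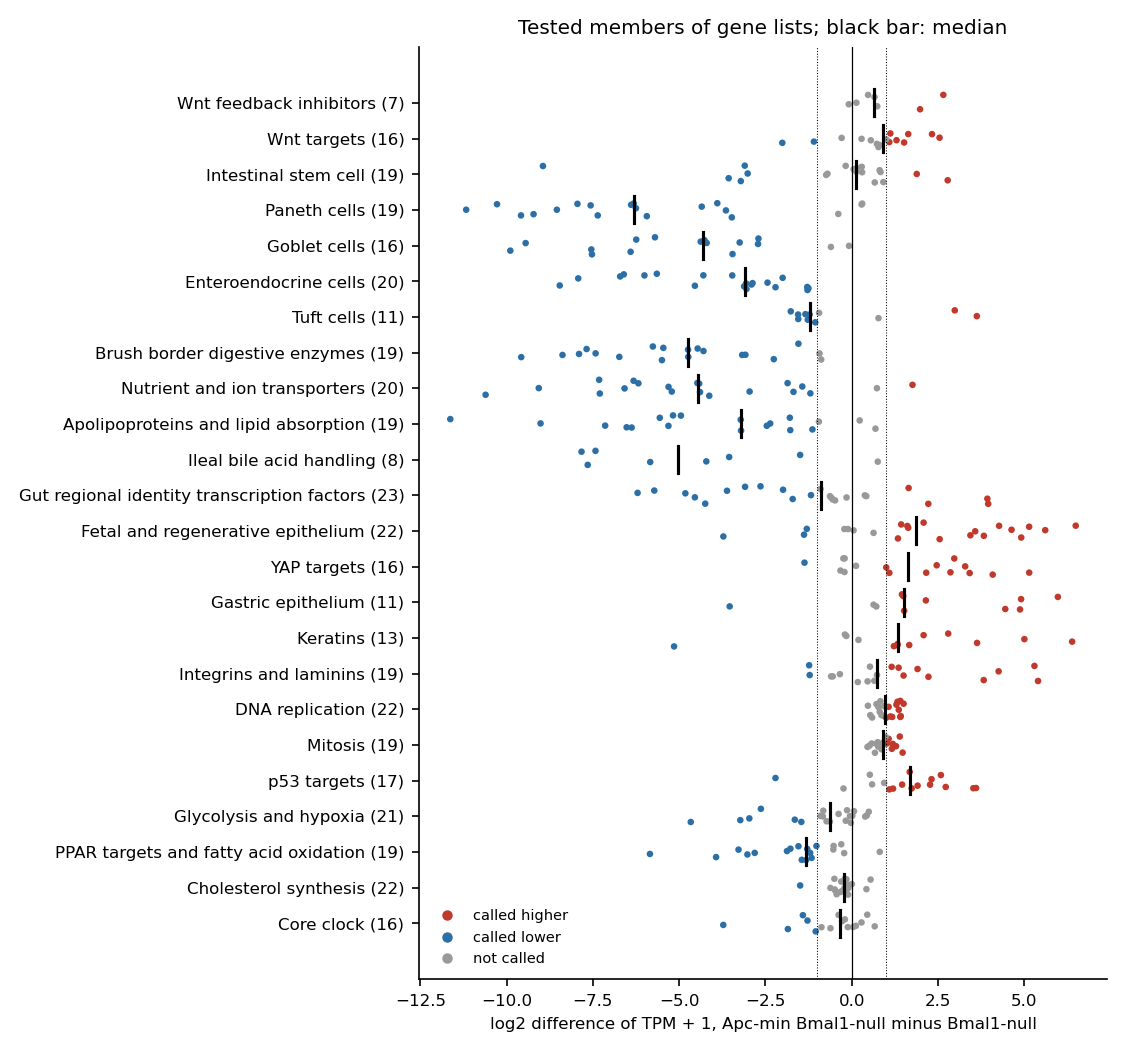
Log2 difference of TPM + 1, Apc-min Bmal1-null minus Bmal1-null, of each tested member of 24 gene lists (number of tested members in brackets); red points rose, blue points fell, grey points were not called, black bars are medians and dotted lines mark 2-fold. Lists of Paneth, goblet, enteroendocrine and absorptive cells lie left of 0, fetal, YAP, gastric, keratin and p53 lists mostly right of it, and cholesterol synthesis close to 0.

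Of 13 tested keratins 9 rose and 1 fell: Krt4 had 156, 287 and 359 TPM in Apc-min Bmal1-null and 1.57, 2.23 and 3.4 TPM in Bmal1-null libraries (6.39 ± 0.08), and the basal keratin Krt14 (30.98 TPM with Apc-min and 0.055 without, 5.01 ± 0.17), Krt80 (3.63 ± 0.08) and the fetal gut keratin Krt7 (1796 TPM with Apc-min and 406 without, 2.08 ± 0.05) rose. The villus keratin Krt20 fell (15.03 TPM with Apc-min and 571 without, -5.15 ± 0.09), and Krt8 and Krt19 differed by -0.15 ± 0.03 and 0.2 ± 0.05. Of 19 integrins, laminins and other basement membrane genes 9 rose and 2 fell. Col4a1 had 21.4, 60.3 and 101 TPM in Apc-min Bmal1-null libraries, against 0.18, 0.335 and 0.99 TPM in Bmal1-null libraries (5.4 ± 0.11), with Col4a2 (5.3 ± 0.11), Col18a1 (4.26 ± 0.08) and the laminin chain Lama5 (125 TPM with Apc-min and 7.8 without, 3.83 ± 0.07) in the same direction. Of 12 annexins 6 rose and 1 fell, and of 15 claudins and tight junction genes 3 rose and 5 fell, with Cldn15, a cation channel of the gut, at 3.25 TPM with Apc-min and 286 without (-6.22 ± 0.08) and the embryonic claudin Cldn6 at 8 TPM with Apc-min and 0 without (3.13 ± 0.08).

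Growth factor and sorting pathways gave smaller and mixed groups. Of 18 tested TGF-beta and BMP genes 7 rose and 3 fell: the BMP targets Id1 (365 TPM with Apc-min and 67.5 without, 2.33 ± 0.08) and Id3 (139.8 TPM with Apc-min and 35.1 without, 1.92 ± 0.08) and the ligand Bmp8b (2.63 ± 0.19) rose, and the ligand Bmp2 fell (0.93 TPM with Apc-min and 17.2 without, -3.11 ± 0.08). Of 14 Eph receptors and ephrins, which sort cells along the crypt axis, 4 rose and 4 fell, with Epha2 at 146 TPM with Apc-min and 39.9 without (1.79 ± 0.08) and Efna1 at 15.8 TPM with Apc-min and 104 without (-2.39 ± 0.09). Of 11 EGF family genes 1 rose, the ligand Nrg1 (1.44 ± 0.07), and 2 fell, the receptor Erbb3 (-1.29 ± 0.13) and Ereg. In the IGF family 3 of 10 rose, with the binding protein Igfbp3 at 13.6 TPM with Apc-min and 0.09 without (3.74 ± 0.05), and the RNA-binding protein Igf2bp2 fell (6.7 TPM with Apc-min and 44.9 without, -2.43 ± 0.10). Of 8 imprinted growth genes 3 fell and 1 rose, with Dlk1 at 0 TPM with Apc-min and 5.13 without (-2.58 ± 0.08) and Phlda2 at 71.96 TPM with Apc-min and 12.9 without (2.35 ± 0.07).

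Proliferation genes were higher by about the 2-fold limit. Of 22 tested DNA replication genes 11 rose and 0 fell, with differences of 0.47 to 1.5 and a median of 0.97. Cdc6, the licensing factor at the top of that range, had 24.6, 40.1 and 43.7 TPM in Apc-min Bmal1-null libraries, against 10.5, 13.4 and 14.8 TPM in Bmal1-null libraries (1.5 ± 0.05, adjusted p = 5.62e-24). No library of the groups overlapped, and the ribonucleotide reductase Rrm2 (247 TPM with Apc-min and 88.7 without, 1.41 ± 0.06) and the helicase subunit Mcm3 (227 TPM with Apc-min and 83.4 without, 1.42 ± 0.03) rose alongside. Of 19 mitosis genes 7 rose and 0 fell, led by Cdc20 (346 TPM with Apc-min and 122 without, 1.48 ± 0.03), Bub1 (1.39 ± 0.07) and Aurka (1.29 ± 0.03), while the proliferation marker Mki67 was at 42.5 TPM with Apc-min and 31.5 without with overlapping groups (0.46 ± 0.11).

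Targets of the tumour suppressor p53 rose in 12 and fell in 1 of 17 tested, with a median of 1.68. Phlda3, an inhibitor of Akt, had 206, 239 and 285 TPM in Apc-min Bmal1-null libraries, against 16.1, 18.98 and 23.3 TPM in Bmal1-null libraries (3.6 ± 0.03, adjusted p = 7.68e-43). The groups did not overlap. Eda2r (26.4 TPM with Apc-min and 1.18 without, 3.53 ± 0.11), Ccng1 (379.5 TPM with Apc-min and 56.97 without, 2.73 ± 0.06), Plk2 (92.4 TPM with Apc-min and 14.4 without, 2.59 ± 0.07), the p53 ligase Mdm2 (142 TPM with Apc-min and 36.6 without, 1.91 ± 0.07) and the death effector Bax (637 TPM with Apc-min and 201 without, 1.68 ± 0.03) rose. The cell cycle inhibitor Cdkn1a, the best known target, was at 342 TPM with Apc-min and 412 without with overlapping groups (-0.24 ± 0.04), and Sesn1 fell (5.13 TPM with Apc-min and 26.8 without, -2.21 ± 0.06).

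Metabolic lists fell in part. Of 19 tested PPAR target and fatty acid oxidation genes 14 fell and 0 rose, with the nuclear receptor Ppara at 0.06 TPM with Apc-min and 9.24 without (-3.28 ± 0.11) and the carnitine transferase Cpt1a at 15.9 TPM with Apc-min and 44.9 without (-1.45 ± 0.12). Cholesterol synthesis stayed level, with 1 of 22 genes called (Tm7sf2, -1.49 ± 0.06) and a median of -0.21. Of 23 cytochrome P450 and phase II genes 12 fell and 6 rose: Cyp4f14 (4.18 TPM with Apc-min and 804 without, -7.29 ± 0.06) and Ugt1a1 (1.31 TPM with Apc-min and 185 without, -6.28 ± 0.09) fell, and the antioxidant genes Gclc (1.45 ± 0.11), Gclm (1.22 ± 0.09) and Gsta4 (1756 TPM with Apc-min and 352 without, 2.38 ± 0.08) rose. Of 9 carboxylesterases 7 fell, with Ces2c at 1.41 TPM with Apc-min and 224 without, and Ces2g rose (65.5 TPM with Apc-min and 5.12 without, 3.47 ± 0.09).

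Of 21 tested glycolysis and hypoxia genes 6 fell and 0 rose. Ndrg1, a hypoxia-induced differentiation gene, had 6.31, 14.99 and 121 TPM in Apc-min Bmal1-null libraries, against 451, 621 and 797 TPM in Bmal1-null libraries (-4.66 ± 0.21, adjusted p = 1.22e-20). Its Apc-min Bmal1-null values spread widely without reaching the other group. The lactate exporter Slc16a3 (9.47 TPM with Apc-min and 78.1 without, -3.23 ± 0.40), the hypoxia-inducible factor hydroxylase Egln3 (30.9 TPM with Apc-min and 241 without, -2.97 ± 0.19), the angiogenic factor Vegfa (14.9 TPM with Apc-min and 112 without, -2.63 ± 0.17), Bnip3 (-1.65 ± 0.32) and Pfkp (-1.46 ± 0.10) fell, and glycolytic enzymes such as Gapdh (-0.17 ± 0.05), Pgk1 (-0.05 ± 0.06) and Pkm (0.44 ± 0.05) were not called. Bnip3 was not called from 36 to 46 h alone (-0.22).

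Of 15 Reg lectins and mucosal defence genes 12 fell and 1 rose: the antibacterial lectin Reg3b (2.33 TPM with Apc-min and 1172 without, -8.3 ± 0.11), the immunoglobulin transporter Pigr (2.99 TPM with Apc-min and 497 without, -6.7 ± 0.22) and the inflammasome sensor Nlrp6 (6.38 TPM with Apc-min and 213 without, -4.75 ± 0.18) fell, and the endotoxin receptor Tlr4 rose (10.02 TPM with Apc-min and 1 without, 2.34 ± 0.09). Of 16 interferon response and antigen presentation genes 8 fell and 1 rose, with the factors Irf7 (2.43 TPM with Apc-min and 31.3 without, -3.2 ± 0.06) and Irf8 (6.5 TPM with Apc-min and 59.9 without, -3.08 ± 0.10) and the class I light chain B2m (118 TPM with Apc-min and 381 without, -1.68 ± 0.04) lower and the virus tethering factor Bst2 higher (50.4 TPM with Apc-min and 17.5 without, 1.48 ± 0.05). The rise of Ifitm1 and Ifitm3 was thus not shared by most of this list. Of 14 chemokines and cytokines 6 rose and 5 fell, with Ccl25, the gut homing chemokine, at 11.5 TPM with Apc-min and 410.1 without (-4.99 ± 0.04) and Ccl6 at 0.14 TPM with Apc-min and 66.9 without (-5.93 ± 0.04) among the falls, and Il33 (5.14 ± 0.13) and the macrophage growth factor Csf1 at 5.01 TPM with Apc-min and 0.11 without (2.35 ± 0.06) among the rises. Of 19 unfolded protein and integrated stress response genes 7 fell and 1 rose, with Ddit3 (CHOP) at 6.69 TPM with Apc-min and 58.2 without (-2.73 ± 0.12), while the chaperone Hspa5 was at 651 TPM with Apc-min and 703 without (-0.09 ± 0.03).

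Glucocorticoid targets and metallothioneins fell in 9 of 15 tested and rose in 0, with a median of -1.13. The metal-binding proteins Mt1 (768 TPM with Apc-min and 6828 without, -3.07 ± 0.05) and Mt2 (273 TPM with Apc-min and 5222 without, -4.1 ± 0.06), the cortisol-inactivating enzyme Hsd11b2 (0.39 TPM with Apc-min and 38.7 without, -4.94 ± 0.06), the anti-inflammatory target Tsc22d3 (31.9 TPM with Apc-min and 92.5 without, -1.5 ± 0.05) and the receptor Nr3c1 itself (13.7 TPM with Apc-min and 32.95 without, -1.17 ± 0.11) fell. Fkbp5, a receptor co-chaperone, fell (-1.13 ± 0.07), and Per1 and Klf9 differed by -0.38 ± 0.09 and 0.02 ± 0.05.

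Core clock genes, all measured without Bmal1, fell in 5 and rose in 0 of 16 tested. Nfil3, a repressor of clock output genes, had 4.51, 7.6 and 12.5 TPM in Apc-min Bmal1-null libraries, against 26.2, 30.3 and 35 TPM in Bmal1-null libraries (-1.85 ± 0.05, adjusted p = 2.01e-26). Its groups did not overlap, and the Clock paralog Npas2 (17.6 TPM with Apc-min and 51.5 without, -1.41 ± 0.13), Per2 (7.62 TPM with Apc-min and 21.4 without, -1.28 ± 0.10) and Bhlhe40 (-1.04 ± 0.10) fell too. From 36 to 46 h alone Npas2 fell just short of the call, and Bhlhe40 was not called there, in lower-numbered libraries alone, with library 10 kept or without 1 of the 32 h Apc-min Bmal1-null libraries (-0.98 to -0.77 over these settings). The Bmal1 targets Nr1d1 (4.73 TPM with Apc-min and 2.46 without, 0.67 ± 0.08) and Dbp (6.25 TPM with Apc-min and 5.73 without, 0.12 ± 0.05) and the Bmal1 partner gene Clock (0.04 ± 0.14) were not called. Library 10 was left out partly for its Nr1d1 level, so the Nr1d1 value is not independent of that choice.

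The organoids were epithelial by their markers in both genotypes. Of 10 tested epithelial genes 4 fell and 1 rose, with a median of -0.75. Epcam, the pan-epithelial adhesion molecule, was abundant in both, although it fell (616 TPM with Apc-min and 1621 without, -1.4 ± 0.03), with E-cadherin, Cdh1, at 326 TPM with Apc-min and 346 without (-0.06 ± 0.08) and Krt8 at 3371 TPM with Apc-min and 3704 without. The defining genes of other cell types were near 0. The collagen Col1a1 reached 0.18 TPM at most in Apc-min Bmal1-null and 0.38 TPM in Bmal1-null libraries, the leukocyte marker Ptprc 0.13 TPM with and 0.31 without Apc-min, the endothelial Pecam1 0.22 TPM with and 0.57 without it and the smooth muscle myosin Myh11 0.06 TPM with and 0.03 without it. Cd3g and Cd8a of T cells and Emcn of endothelium were listed at 0 in every library of both genotypes. Of the markers of such cells that passed the filter, 2 of 10 fibroblast genes were tested and fell (Vim and Pdgfrb), 3 of 11 immune genes (Cd68 rose, Itgam fell), 4 of 8 endothelial genes (Tek, Cdh5 and Vwf rose, the last at the limit of 2-fold), 1 of 7 smooth muscle genes (Acta2 rose) and 2 of 9 neural genes (Ret fell). The summed level of the fibroblast list was 0.59 to 6.02 TPM in Apc-min Bmal1-null and 9.27 to 15.2 TPM in Bmal1-null libraries, and that of the immune list 3.36 to 11.5 TPM with and 3.47 to 5.74 TPM without Apc-min. The endothelial list summed to 13.5 to 27.4 TPM in Apc-min Bmal1-null and 3.72 to 7.08 TPM in Bmal1-null libraries, the smooth muscle list to 2.38 to 20.1 TPM with and 0.02 to 0.83 TPM without Apc-min, and the neural list to 1.1 to 4.31 TPM with and 5.42 to 10.4 TPM without Apc-min. The part of such cells in the results was not tested.

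The difference between the genotypes changed over the series for some genes. With a term for genotype by time, the difference moved upward with time in 1086 genes (8.13% of those tested) and downward in 472 (3.53%) at an adjusted p under 0.05 in limma. With median-of-ratios scaling the split was 1045 upward and 1002 downward. With library 10 kept these were 526 and 278, within the lower-numbered libraries 238 and 92, and within the higher-numbered 29 and 4. The 5 of lowest p were Acta2, Aldh1b1, Rnf186, Krt14 and Esd. Acta2, smooth muscle actin, averaged 13.8 TPM at 24 to 30 h and 3.04 TPM at 40 to 46 h in Apc-min Bmal1-null organoids, against 0.00375 and 0.01 TPM in Bmal1-null libraries (-2.55 ± 0.15 on the log2 scale over 22 h, adjusted p = 8.66e-14). Krt14 averaged 72.6 TPM early and 16.7 TPM late in Apc-min Bmal1-null organoids and 0.109 and 0.0629 TPM in Bmal1-null libraries (-2.81 ± 0.21). Both had a far lower late than early mean in Apc-min Bmal1-null organoids. Aldh1b1, a mitochondrial aldehyde dehydrogenase, averaged 16.9 and 57.6 TPM in Apc-min Bmal1-null libraries, against 935 and 898 TPM in Bmal1-null libraries (2.55 ± 0.18), and the ubiquitin ligase Rnf186 moved the same way (2.78 ± 0.20). Esd, an esterase, moved by -0.84 ± 0.07.

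The glycolysis and hypoxia list had 19 of its 21 genes with an upward change and 0 with a downward one. Slc16a3 averaged 2.79 TPM at 24 to 30 h and 49.8 TPM at 40 to 46 h in Apc-min Bmal1-null organoids, against 71.3 and 92.9 TPM in Bmal1-null libraries (5.76 ± 0.80 over 22 h, adjusted p = 5.51e-06). Ndrg1 averaged 14.2 and 72.01 TPM in Apc-min Bmal1-null and 546 and 701 TPM in Bmal1-null libraries (2.69 ± 0.51), and Egln3 15.3 and 75.3 TPM in Apc-min Bmal1-null and 211 and 273 TPM in Bmal1-null libraries (2.73 ± 0.41). In all 3 the late mean of Apc-min Bmal1-null libraries was a larger share of the Bmal1-null mean than the early one, and still below it. Lactate dehydrogenase, Ldha, shifted by 0.79 ± 0.12 and Gapdh by 0.47 ± 0.13. The count of 19 was 18 with median-of-ratios scaling, 6 with library 10 kept, 11 within the lower-numbered libraries and 1 within the higher-numbered, and 19 or 20 when any library was left out.

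**Figure D4:**
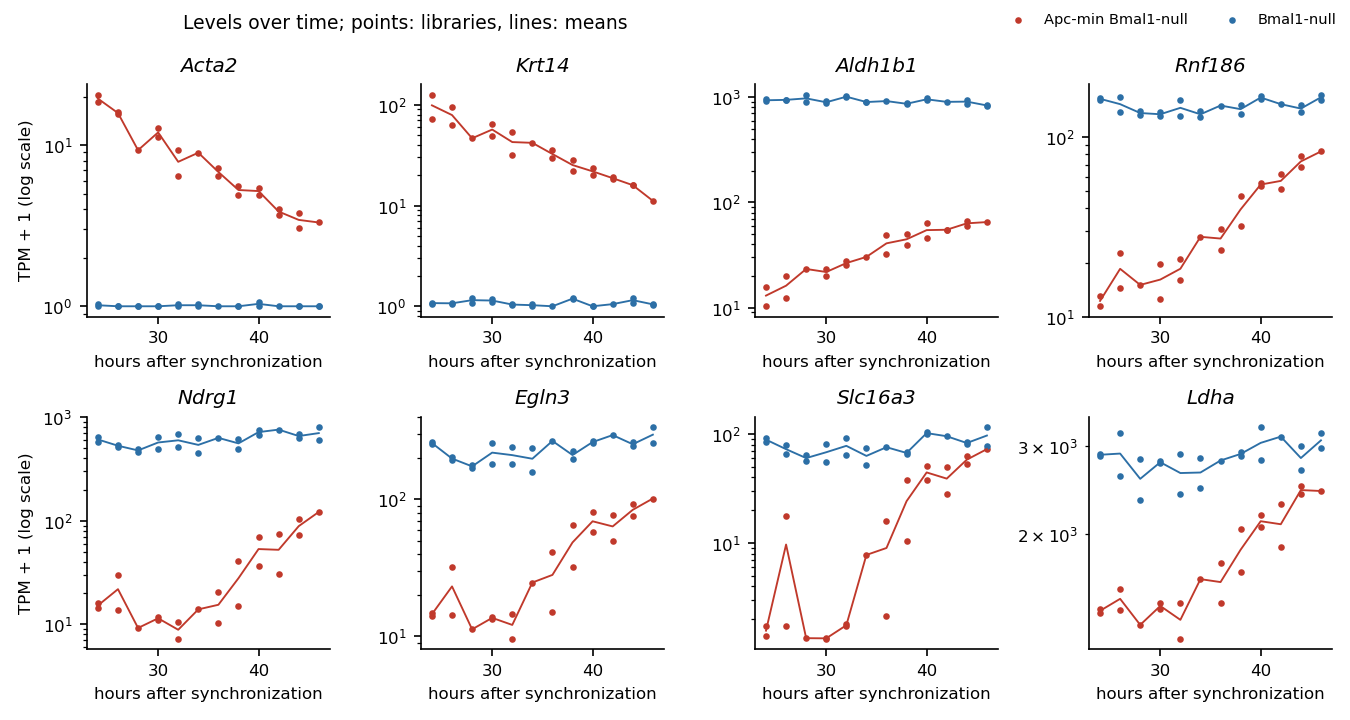
TPM + 1 (log axis) against hours after synchronization for 8 genes, with each of 21 Apc-min Bmal1-null libraries in red and 22 Bmal1-null libraries in blue; lines join the means. Acta2 and Krt14 decline and Aldh1b1, Rnf186, Ndrg1, Egln3, Slc16a3 and Ldha climb in Apc-min Bmal1-null organoids, while Bmal1-null levels stay comparatively flat.

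Stem cell markers also shifted, 7 of 19 upward and 1 downward. The upward count was 4 with library 10 kept, 3 in lower-numbered and 1 in higher-numbered libraries alone. Lgr5 averaged 1.25 TPM early and 5.05 TPM late in Apc-min Bmal1-null organoids, against 22.9 and 36.3 TPM in Bmal1-null libraries (1.23 ± 0.39), and Smoc2 14.03 and 48.8 TPM in Apc-min Bmal1-null, against 192 and 238 TPM in Bmal1-null libraries (1.99 ± 0.19). In both genes the late mean was the higher one in each genotype. The downward one, Olfm4 (-1.27 ± 0.20), stayed at 0.0229 and 0.0129 TPM in Apc-min Bmal1-null libraries while Bmal1-null organoids averaged 369.5 TPM early and 716 TPM late.

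The same Apc contrast exists in organoids with wild-type Bmal1 (21 Apc-min and 22 control libraries, none shared), and the difference between the contrasts was tested as an interaction. Apc-min libraries carry numbers 4 to 48 and control libraries 49 to 94. There too the Apc mutation and the library series cannot be told apart. The medium and tissue origin of Apc-min and control organoids are not given here, so this contrast is not taken to be free of such differences. Library 9, labelled Apc-min at 28 h, was left out, as its Arntl level of 4.09 TPM and its Notum level of 12.6 TPM went against its label, where the other Apc-min libraries had at least 7.2 and 56.3 TPM. H19, Stra6 and Pdx1 were at 0.33, 7.12 and 22.8 TPM in library 9, within the ranges of the Apc-min Bmal1-null libraries used. In library 10 they were at 196, 633 and 0.02 TPM, within the ranges of the Apc-min libraries used. Whether libraries 9 and 10 were exchanged was not tested. In organoids with wild-type Bmal1, 12.2% of 13674 tested genes rose and 12.4% fell. Of the genes that rose in Bmal1-null organoids 1044 also rose there, which is 67.2% of the first list and 62.6% of the second, and of those that fell 1481 also fell, 72.99% and 87.4%. Another 3 genes rose without Bmal1 and fell with it, and 8 fell without and rose with it. At an adjusted p under 0.05 and 2-fold, the Apc effect was higher in Bmal1-null organoids for 290 of 13864 genes (2.09%) and lower for 742 (5.35%), and 53.3% passed the adjusted p alone. Within the lower-numbered libraries these counts were 710 and 1416, and within the higher-numbered 300 and 502. With libraries 9 and 10 kept they were 246 and 595.

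Several of the largest differences were in genes whose difference with the Apc mutation was far larger where Bmal1 was wild type. Stra6 averaged 10.6 ± 4.66 TPM in Apc-min Bmal1-null and 0.0127 ± 0.0207 TPM in Bmal1-null libraries (SD), against 350.4 ± 184 TPM in Apc-min and 0.0114 ± 0.0208 TPM in control organoids (interaction -4.83 ± 0.20, adjusted p = 2.04e-34). The imprinted growth-restricting RNA H19, which was under the 1 TPM filter in the Bmal1-null contrast, averaged 0.55 ± 0.308 TPM in Apc-min Bmal1-null and 0.115 ± 0.118 TPM in Bmal1-null libraries, against 219.7 ± 69.1 TPM in Apc-min and 0.127 ± 0.101 TPM in control organoids (-7.09 ± 0.11). Dmkn, dermokine (-4.95 ± 0.31), Fam43b (-4.69 ± 0.19) and the cytochrome Cyp2f2 (-4.4 ± 0.32) were likewise highest in Apc-min organoids. Pdx1 had the opposite pattern, with 21.7 ± 2.22 TPM in Apc-min Bmal1-null and 0.448 ± 0.146 TPM in Bmal1-null libraries, against 0.0133 ± 0.0201 TPM in Apc-min and 0.42 ± 0.11 TPM in control organoids (4.44 ± 0.06).

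Anxa10, a gastric annexin, averaged 31.1 ± 13.5 TPM in Apc-min Bmal1-null and 18.4 ± 4.25 TPM in Bmal1-null libraries, against 0.348 ± 0.138 TPM in Apc-min and 24.99 ± 5.44 TPM in control organoids (4.84 ± 0.12). It fell with the Apc mutation where Bmal1 was wild type and was not called where Bmal1 was null. S100g, the vitamin D dependent calbindin, averaged 12.1 ± 4.78 TPM in Apc-min Bmal1-null and 249 ± 55.5 TPM in Bmal1-null libraries, against 295 ± 160.5 TPM in Apc-min and 241 ± 43.5 TPM in control organoids (-4.43 ± 0.21). Bex4 (-1.03 without and 3.38 with Bmal1, interaction -4.42 ± 0.13) and the retinol dehydrogenase Rdh9 (-1.61 without and 2.77 with Bmal1, -4.38 ± 0.14) fell in one background and rose in the other. The fall of Bex4 was not called in the lower-numbered libraries alone (-0.76), from 24 to 34 h alone, with library 10 kept, in the authors' quantile-normalized tables or without 1 Apc-min Bmal1-null library of 40 h (-0.99 to -0.76 over these settings).

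Members of several lists described above also differed between the backgrounds. The feedback inhibitors Notum (2.66 without and 6.45 with Bmal1) and Nkd1 (1.98 without and 4.76 with Bmal1) rose less without Bmal1 (interactions -3.84 ± 0.27 and -2.77 ± 0.21), and 3 of 7 feedback inhibitors were called in this direction. Library 9 was left out partly for its Notum level, so the Notum value is not independent of that choice. Of 21 glycolysis and hypoxia genes 5 had a lower Apc effect without Bmal1, among them Slc16a3 (-3.23 without and -0.88 with Bmal1) and Egln3 (-2.97 without and -0.59 with Bmal1), and Bnip3 went opposite ways (-1.65 without and 1.16 with Bmal1). Lgr5 fell in both (-3.1 without and -1.57 with Bmal1, interaction -1.5 ± 0.22), as did the aminopeptidase Anpep (-6.74 without and -2.38 with Bmal1, -4.36 ± 0.32). Bmp2 was at -3.11 without and -0.18 with Bmal1 (-2.96 ± 0.34). The basal keratins Krt14 (5.01 without and 8.92 with Bmal1) and Krt6a (2.8 without and 6.66 with Bmal1) rose less, while Igfbp4 was at 0.84 without and -2.04 with Bmal1 (2.91 ± 0.20). Of 22 DNA replication, 19 mitosis, 17 p53 target and 16 YAP target genes 0 were called for this difference at 2-fold. Smaller differences are not covered by that count. DNA replication genes rose in 11 without and 2 with Bmal1 (medians 0.97 and 0.61), and mitosis genes in 7 and 2 (0.91 and 0.63). For p53 targets the counts were 12 and 12 (1.68 and 1.695), and for YAP targets 10 and 9 (1.63 and 1.57).

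**Figure D5:**
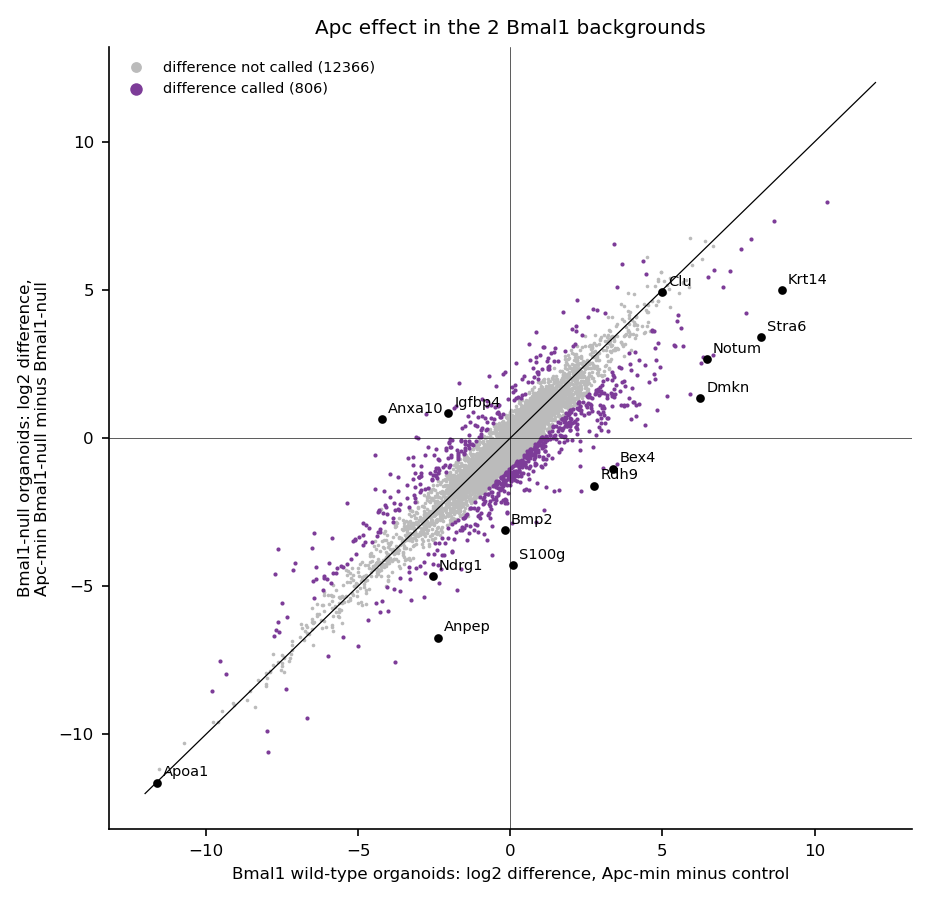
Log2 difference of TPM + 1 with the Apc mutation in Bmal1-null organoids (vertical) against that in organoids with wild-type Bmal1 (horizontal) for 13172 genes tested in both; the line marks equal differences and purple points the 806 genes whose difference between backgrounds was called. Apoa1 lies on the line, Stra6, Krt14 and Notum below it, Anxa10 above it, and Bex4, Rdh9 and S100g below it and below 0.

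Within the Bmal1-null genotypes the differences were also taken in the lower-numbered and in the higher-numbered libraries alone. Of 3582 genes that rose or fell, 3557 had the same sign in both sets and 3201 reached 2-fold in both. These genes were called from both sets together, so this agreement was largely fixed by the choice and is no support. Among genes named here, Apoa1 was at -11.63 in lower-numbered and -11.64 in higher-numbered libraries, Defa24 at -11.2 and -11.05, Ifitm1 at 7.97 and 7.95, Clu at 4.47 and 5.43, and Anxa10 at 0.33 and 0.99.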

How the data were processed

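RNA of mouse intestinal organoids was sequenced as single reads from directional libraries, per the labels' protocols. The authors deposited TPM values per gene in a table for each genotype, and the submitters' processing notes name STAR 2.5, RSEM 1.3.0 and GRCm38. The authors also deposited quantile-normalized TPM tables, used only as an alternative, and per library the count of uniquely mapped reads and the percent of reads unmapped as too short. Whole read counts per gene were not used here, so no count test was run.

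Symbols and coordinates came from GENCODE M21 (GRCm38), which matched all 55536 gene IDs. Levels were compared as log2(TPM + 1) in limma 3.58.1 with R 4.3.3 (moderated test with a mean-variance trend), with the 12 time points as a factor, over genes whose mean reached 1 TPM in at least 1 genotype. p-values were Benjamini-Hochberg adjusted over all genes tested. The change over time was the genotype by time (linear) coefficient, given over 22 h, and the difference between Bmal1 backgrounds was the interaction over all 4 genotypes without libraries 9 and 10, both at 28 h. In simulated data, the level comparison of 13362 genes recovered 100% of 100 genes changed by 1.5 on the log2 scale. The change over time recovered 91% at that size over 22 h. In the measured data 85.2% of the genes passed the adjusted p for level, a far larger part than was changed in the simulation. The recovered shares do not show how the tests perform where organoid lines differ or where a gene's level is low.

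Named genes were the 15 largest rises and 15 largest falls among genes of at least 5 TPM whose sign held at each of 12 times, up to 4 members of each of 53 gene lists plus members whose role describes the list, the 10 largest differences between backgrounds and the 5 changes over time of lowest p. Some genes that this rule names are not reported here. Members and lists were chosen with earlier results of these data known. Alternatives were another pseudocount, filter and scaling, the authors' quantile-normalized tables, library 10 kept, single library sets, shorter windows, a replicate block and leaving out each library.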

Additional observations from a re-analysis of the deposited data

Results flagged for a closer look

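The Apc effect on the log2(TPM + 1) scale differed between Bmal1-null and Bmal1 wild-type organoids by a test of the difference itself (limma interaction, adjusted p under 0.05, 2-fold) for 290 genes in which it was higher without Bmal1 and 742 in which it was lower. The 10 largest of these were H19 (-7.09 ± 0.11, adjusted p = 5.91e-64), Dmkn (-4.95 ± 0.31), Anxa10 (4.84 ± 0.12), Stra6 (-4.83 ± 0.20), Fam43b (-4.69 ± 0.19), Pdx1 (4.44 ± 0.06), S100g (-4.43 ± 0.21), Bex4 (-4.42 ± 0.13), Cyp2f2 (-4.4 ± 0.32) and Rdh9 (-4.38 ± 0.14), each with its SE. All 10 stayed past both thresholds with the same sign in every alternative in which they were fitted. Each genotype rests on 2 organoid lines.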

How the results depend on the processing

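The counts of genes that rose and fell (1553 and 2029) stayed within 1.5 times of these values in all alternatives run, from 1231 to 1905 and from 1551 to 2453, and were 1523 to 1611 and 1988 to 2064 with any single library left out. With library set means as units, 2 against 2, they were 1545 and 2030. The library numbers pair nothing by the labels; with a replicate block by library set the level counts were 1550 and 2029, those of the change over time 1144 and 474, and those of the difference between backgrounds 295 and 767.

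The change over time was less stable. Its counts (1086 and 472) were 526 and 278 with library 10 kept, 238 and 92 in lower-numbered libraries alone and 29 and 4 in higher-numbered libraries alone, and 1045 and 1002 with median-of-ratios scaling. Leaving out single libraries gave 764 to 1382 and 324 to 636, the lowest without the only 46 h Apc-min Bmal1-null library. Difference counts between backgrounds (290 and 742) were 500 and 1213 with a pseudocount of 0.1 and 710 and 1416 in lower-numbered libraries alone, and 283 to 301 and 707 to 784 with any library left out. The cause of these shifts was not tested. Of 281 genes with a tested level that the rule or the text names, 8 lost their call in at least 1 alternative (Bex4, Bhlhe40, Bnip3, Fzd9, Npas2, Sox4, Sprr1a and Vwf), and 2 gained it (Arntl with a pseudocount of 0.1, -1.07, or from 24 to 34 h, -1.01, and Mptx2 in lower-numbered libraries, 1.39). Esd lost its change over time in higher-numbered libraries alone. No named difference that was called in the main fit or in an alternative changed sign between them. Sign changes of genes called in neither were not counted.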
